A study of Sus scrofa with 3 samples.

Results

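Plasma lipoproteins carry cholesterol and triglyceride, and the liver makes most of the proteins that build them. The 10 genes described here encode the structural proteins of these particles (APOA1, APOA2, APOA4, APOB, APOC3 and APOE), the transfer protein that loads lipid onto APOB (MTTP), 2 enzymes that remodel high-density lipoprotein or HDL (LCAT and LIPC) and the HDL receptor (SCARB1). They were chosen by name and not by a cut on measured values, but with earlier results of these data known. The choice was made from 34579 features listed for each library, of which 22945 are labelled mRNA. All 10 were found under their own symbols.

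The libraries came from livers of male Wuzhishan pigs, a Chinese miniature breed, aged 6 to 7 months according to the labels. The study's text gives that age for the pigs as obtained, before acclimation and the diet, so they were older when the livers were taken. All pigs ate feed rich in fat and cholesterol (the HFC diet), so the effect of the diet itself was not compared. The groups were intact males (IM), castrated males (CM) and castrated males given testosterone propionate by intramuscular injection from castration onward (CMT). By the labels, liver RNA of 3 pigs per group was combined into 1 library, so n = 1 for each group. The study's text describes larger groups, so the number of pigs in a pool is uncertain. With 1 pooled library per group there is no measure of the spread between pigs, no test was possible, and a ratio given here compares 2 libraries.

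Hepatocytes assemble very-low-density lipoprotein (VLDL) around APOB, which MTTP loads with triglyceride and cholesteryl ester during its synthesis. In the circulation, lipases remove triglyceride from these particles, APOC3 slows that step, and APOE serves as a ligand for receptors that clear the remnants. HDL forms when APOA1 takes up cholesterol from cells, LCAT esterifies this cholesterol, hepatic lipase (LIPC) hydrolyses HDL lipids, and SCARB1 takes cholesteryl ester into the hepatocyte.

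Levels are given as deposited FPKM, a read number divided by transcript length and by 1 divisor per library. The divisors that the values imply were not in proportion to the recovered reads. With equal recovered reads, every CM over IM ratio would shift by 0.28 on the log2 scale and every CMT over CM ratio by -0.24. The columns summed to between 7247700 and 8660400 FPKM and are best read as relative levels. Whole reads could be recovered from the values of 95.2% of the features above 0, giving between 25419203 and 36125528 reads per library, and the intervals beside ratios are 95% exact binomial intervals from these reads. The intervals cover counting error only, and not the difference between pigs. A gene was called when its ratio was at least 1.5-fold and each of the 3 libraries had 1 FPKM or more, a minimum that 15613 mRNA features met.

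The members spanned a wide range of levels. APOE was the most abundant, at 163524 FPKM in IM, 127673 in CM and 156567 in CMT. It ranked 2 among all mRNA features in every library. APOC3 followed at 110614, 104124 and 107488 FPKM in IM, CM and CMT. APOA1, the main structural protein of HDL, stood at 78115, 63098 and 66662 FPKM. These 3 kept the same order in all libraries, although APOE exceeded APOC3 by only 1.23-fold in CM against 1.48-fold in IM. SCARB1 was the lowest member in each library, at 411 to 529 FPKM. The order in the middle changed. APOA4 was the sixth member by level in IM, the eighth in CM and the ninth in CMT. In CM the neighbours LCAT and APOA4 were only 1.03-fold apart. Together the 10 genes took 4.52%, 4.42% and 4.43% of the FPKM columns of IM, CM and CMT.

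**Figure D1:**
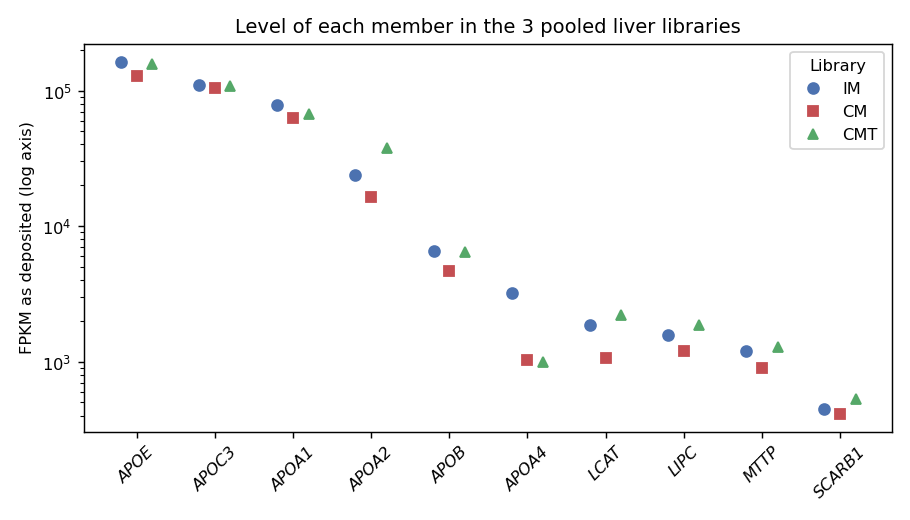
FPKM as deposited (log axis) of the 10 members in the IM, CM and CMT libraries, 1 point per pooled library with no error bar. CM lay lowest for 9 of the 10 genes, and APOA4 was lowest in CMT.

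All 10 members were lower in CM than in IM. Among the 15613 mRNA features, 52.0% were lower in CM. Most abundant transcripts shared this direction. Of the 1509 mRNA features at least as high in all 3 libraries as the lowest member value, 69.1% were lower in CM. The median log2 ratio, CM over IM, was -0.40 for the members, -0.02 for all 15613 features and -0.14 for the 1509 abundant ones. Only APOA4 and LCAT were at least 1.5-fold lower, 2 of 10, where 12.1% of all features were. None of the 10 was at least 1.5-fold higher, where 11.1% of all features were. The counts and medians depend on how the libraries are scaled. The members' median was -0.12 when libraries were set to equal recovered reads, and it turned to 0.08 when they were set to 6 hepatocyte markers. That scaling used the mean log2 level of the 6, and FGB, a fibrinogen gene, differed most among them. In CM over IM FGB had a log2 ratio of -1.14, and the others lay between -0.54 and 0.03. In CMT over CM FGB had 1.67, and the others lay between -0.10 and 0.72. The scaling was not repeated without FGB. With the hepatocyte-marker scaling APOA1, APOC3, APOE, MTTP, LIPC and SCARB1 were higher in CM than in IM.

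With testosterone, 9 of 10 members were higher in CMT than in CM, and APOA4 was the exception. Of all 15613 features, 48.5% were lower in CMT than in CM, and of the 1509 abundant ones 27.4% were lower. APOA2, LCAT and LIPC were at least 1.5-fold higher, 3 of 10, where 12.1% of all features were. No member was at least 1.5-fold lower, where 13.5% of all features were. The median log2 ratio, CMT over CM, was 0.42 for the members, 0.01 for all features and 0.21 for the abundant ones, and the members' median turned to -0.08 with the hepatocyte-marker scaling, under which APOA1, APOB, APOC3, APOE and SCARB1 were lower in CMT than in CM. The CM library enters both this comparison and the one before it, so opposite signs in the 2 comparisons are partly built in.

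The median log2 ratio, CMT over IM, was 0.03 for the members and -0.01 for all features. It is a signed median over ratios in both directions, and which libraries lay closest differed by gene. As deposited, the CMT level of APOA1 and APOA4 lay nearer to CM than to IM. For APOA2 and SCARB1 the IM level lay nearer to CM than to CMT. Of the members, 5 were lower in CMT, where 51.0% of all features and 39.2% of the abundant ones were, and with equal recovered reads 3 were. APOA2 was the single member at least 1.5-fold higher, where 6.67% of all features were, and APOA4 the single member at least 1.5-fold lower, where 10.1% were. CM was the lowest of the 3 libraries for 9 of 10 members. The same held for 38.7% of all 15613 features and for 61.4% of the 1509 abundant ones.

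**Figure D2:**
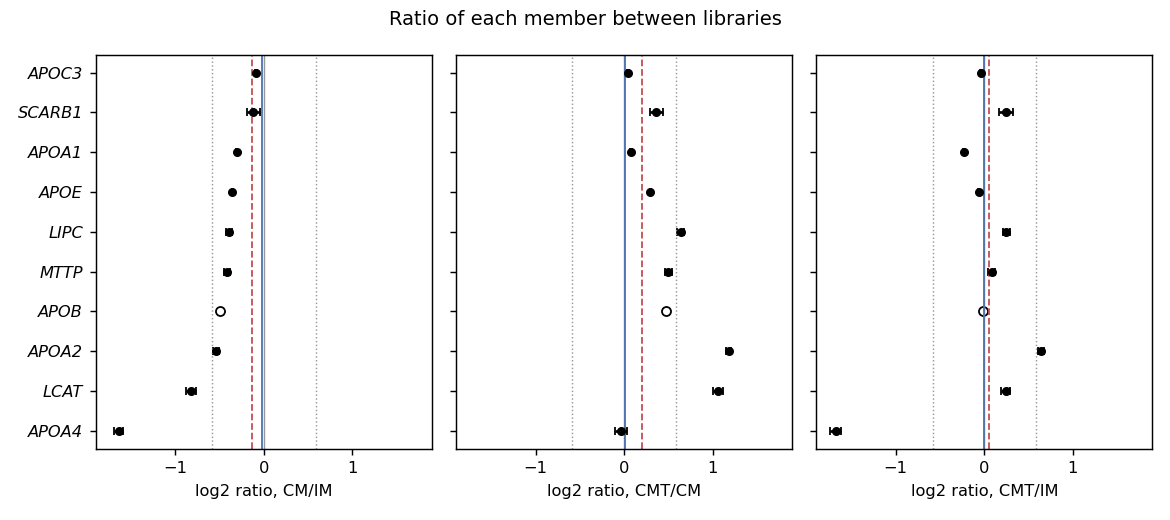
log2 ratio of each member in CM over IM, CMT over CM and CMT over IM, with 95% exact binomial counting intervals (bars) and an open circle for APOB, whose reads were not recovered. Solid blue and dashed red lines mark the medians of all 15613 and of the 1509 abundant mRNA features, and dotted lines mark 1.5-fold. In CM over IM, all 10 points lie to the left of 0.

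Among the VLDL genes, MTTP and the feature named APOB followed each other closely. APOB, the non-exchangeable protein of VLDL and LDL, was at 6529 FPKM in IM, 4630 in CM and 6453 in CMT. Its log2 ratios were -0.50 for CM over IM, 0.48 for CMT over CM and -0.02 for CMT over IM. MTTP was at 1206, 905 and 1279 FPKM in IM, CM and CMT. It was 1.33-fold lower in CM than in IM (interval 1.30 to 1.37) and 1.41-fold higher in CMT than in CM (interval 1.38 to 1.45). For MTTP and the feature named APOB, CM was the low library while IM and CMT lay close together. The APOB level was 5.41, 5.12 and 5.04 times the MTTP level in IM, CM and CMT, a ratio within each library that no scaling can change. Neither the feature named APOB nor MTTP reached 1.5-fold in any comparison. A further feature that the study's gene list matches to human APOB, LOC100519252, was 1.52-fold lower in CM than in IM. Unlike the feature named APOB, it stayed low in CMT, with log2 ratios of 0.06 for CMT over CM and -0.54 for CMT over IM.

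The HDL apolipoproteins did not move as a pair. APOA1 was 1.24-fold lower in CM than in IM (interval 1.23 to 1.25) and 1.06-fold higher in CMT than in CM (interval 1.05 to 1.06), so CMT stayed below IM. The direction of the CMT over CM ratio turned under 4 of the 5 scalings, all but the median ratio. APOA2, another major protein of human HDL, was at 24015 FPKM in IM, 16501 in CM and 37414 in CMT. It was 1.46-fold lower in CM than in IM (interval 1.42 to 1.49) and 2.27-fold higher in CMT than in CM (interval 2.22 to 2.32). CMT was also 1.56-fold above IM (interval 1.52 to 1.59), so the APOA2 level was highest in the castrated pigs given testosterone. Within a library, APOA2 was 0.307 of the APOA1 level in IM, 0.262 in CM and 0.561 in CMT.

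APOA4, a protein of HDL and triglyceride-rich particles that in humans comes mostly from the intestine, had the widest range of the members. Its level was 3195 FPKM in IM, 1025 in CM and 999 in CMT. IM stood apart from the other two libraries. APOA4 was 3.12-fold lower in CM than in IM (interval 3.01 to 3.23) and 3.20-fold lower in CMT than in IM (interval 3.07 to 3.34). Between CMT and CM the ratio was 0.975 and its interval, 0.93 to 1.02, included 1. The APOA1 level was 24.4 times that of APOA4 in IM, 61.6 times in CM and 66.7 times in CMT. APOA4 kept its call against IM under all 5 scalings. Small-intestinal RNA was looked for through 4 measured enterocyte genes. FABP2 and SI were listed at 0 in all libraries, LCT was between 0.16 and 0.49 FPKM, and APOBEC1 was at 1.84 FPKM in IM and listed at 0 in the others.

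Neither APOC3 nor APOE reached 1.5-fold in any comparison, and APOC3 had the narrowest range of the 10 members. APOC3, an inhibitor of triglyceride clearance, was 1.06-fold lower in CM than in IM (interval 1.06 to 1.07) and 1.03-fold higher in CMT than in CM (interval 1.03 to 1.04). APOE, the remnant ligand, was 1.28-fold lower in CM than in IM (interval 1.28 to 1.29) and 1.23-fold higher in CMT than in CM (interval 1.22 to 1.23). The CMT over CM ratio of APOC3 also turned under those 4 scalings. In CMT, APOE was 0.957 of its IM level (interval 0.953 to 0.962). For APOC3 the direction in CM against IM turned with equal recovered reads, equal column sums and the hepatocyte-marker scaling, and for APOE it turned with the last of these. The APOC3 level was 16.9, 22.5 and 16.7 times that of APOB in IM, CM and CMT.

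The HDL enzymes were low in CM and highest in CMT. LCAT, which esterifies cholesterol on HDL, was at 1870 FPKM in IM, 1058 in CM and 2213 in CMT. It was 1.77-fold lower in CM than in IM (interval 1.70 to 1.83) and 2.09-fold higher in CMT than in CM (interval 2.01 to 2.17). CMT was 1.18-fold above IM (interval 1.14 to 1.23). LIPC was at 1579, 1202 and 1874 FPKM, which is 1.31-fold lower in CM than in IM (interval 1.28 to 1.35) and 1.56-fold higher in CMT than in CM (interval 1.52 to 1.60). The LCAT ratio of CM against IM was under 1.5-fold with equal recovered reads, equal column sums and the hepatocyte-marker scaling, and its CMT against CM ratio with the last of these. The LIPC ratio of CMT against CM was under 1.5-fold in 4 of the 5 scalings, all but the median ratio. The study named LCAT and LIPC from these same libraries, so their inclusion is not independent. Without them the members' median log2 ratio was -0.39 for CM over IM and 0.33 for CMT over CM.

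SCARB1, the receptor that takes cholesteryl ester from HDL, was at 447 FPKM in IM, 411 in CM and 529 in CMT. It was 1.09-fold lower in CM than in IM (interval 1.03 to 1.14) and 1.29-fold higher in CMT than in CM (interval 1.22 to 1.36). Its direction in CM against IM turned with equal recovered reads, equal column sums and the hepatocyte-marker scaling. LCAT was 4.18 times the SCARB1 level in IM and again in CMT, and 2.57 times in CM.

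**Figure D3:**
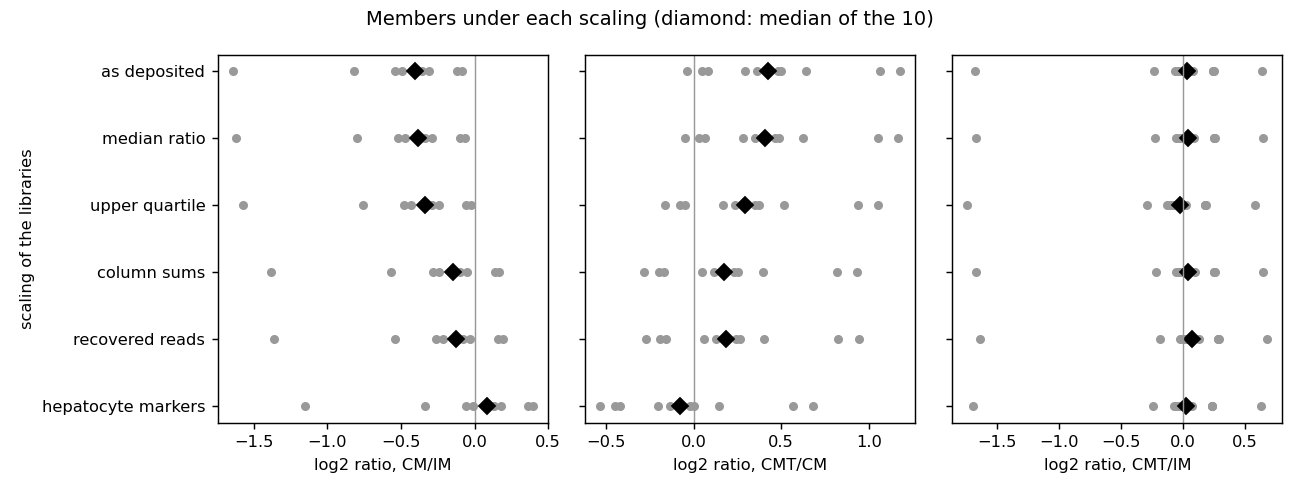
log2 ratio of the 10 members (grey points) and their median (black diamonds) as deposited and under 5 scalings of the libraries, for CM over IM, CMT over CM and CMT over IM. In CM over IM the median moves from -0.40 as deposited to 0.08 with the hepatocyte-marker scaling, and APOA4 remains the lowest point throughout.

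Markers of liver cell types also differed between the libraries, in directions that varied with the cell type. Of 6 hepatocyte markers, 5 were lower in CM than in IM, with a mean log2 ratio of -0.49. ALB, the plasma albumin gene, was at 690375, 476360 and 445509 FPKM in IM, CM and CMT, and TF, the transferrin gene, was at 115328, 118067 and 122937 FPKM. The summed hepatocyte level was 688506 FPKM in CM against 947144 in IM and 727482 in CMT, and ALB was the largest part of each sum. By gene, the mean log2 ratio was 0.50 for CMT over CM, with 1 of the 6 lower in CMT. FGB, at 1.67, weighed most in that mean. For CMT over IM the mean was 0.01, with 3 of the 6 lower in CMT. All 8 T and NK cell markers were higher in CM than in IM and lower in CMT than in CM, with sums of 579, 741 and 463 FPKM in IM, CM and CMT. The sum of 9 macrophage markers lay between 16922 and 18458 FPKM. Taken gene by gene, 6 of the 9 were lower in CM than in IM, with a mean log2 ratio of -0.30, and the mean for CMT over CM was 0.31. MARCO, a scavenger receptor of macrophages, was at 414, 82.8 and 317 FPKM in IM, CM and CMT. CD163, another, was at 1305, 909 and 1386 FPKM. MARCO differed most, with log2 ratios of -2.32 for CM over IM and 1.94 for CMT over CM. Apart from it and CD163, ratios in CM over IM lay between -0.18 and 0.40, with AIF1, C1QB and C1QC above 0. The means were not repeated without MARCO. The sum of 6 endothelial markers lay between 3086 and 3792 FPKM and that of 7 stellate cell and fibroblast markers between 1313 and 1565 FPKM. The 2 bile duct markers found summed to 40.0, 68.9 and 45.7 FPKM, and the erythroid genes HBB and ALAS2 to 17235, 3416 and 5182 FPKM. In bulk liver, fewer hepatocytes and less RNA of these genes per hepatocyte cannot be told apart. The part of cell composition in the members' ratios was not tested.

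Several members lie side by side in the genome. By gene order in RefSeq for assembly Sscrofa11.1, APOA5, APOA4, APOC3 and APOA1 are consecutive protein-coding genes on chromosome 9, and APOE, APOC4 and APOC2 on chromosome 6. Neighbours did not share a ratio on chromosome 9. In CM over IM, the log2 ratios along the cluster were -1.02 for APOA5, -1.64 for APOA4, -0.09 for APOC3 and -0.31 for APOA1. In CMT over IM they were -0.50, -1.68, -0.04 and -0.23, so within the cluster APOA5 and APOA4 had the larger differences from IM in both castrated groups. BUD13, a splicing factor gene on that side and separated from APOA5 by ZPR1 (not analysed here), was at 262, 80.5 and 177 FPKM, a log2 ratio of -1.70 in CM over IM. SIK3, a kinase gene next to APOA1, had a log2 ratio of -0.20 in CM over IM and of -0.60 in CMT over IM, which was farther from 0 than that of APOA5.

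On chromosome 6 the 3 clustered genes had the same signs in each comparison with CM. APOC4 was at 10931, 6948 and 12080 FPKM in IM, CM and CMT, and APOC2, the activator of lipoprotein lipase, was at 23542, 20405 and 26794 FPKM. The log2 ratios for CM over IM were -0.36 for APOE, -0.65 for APOC4 and -0.21 for APOC2. The flanking genes NECTIN2 and TOMM40 had 0.05 and 0.02 on one side, and CLPTM1 and RELB had -0.46 and 0.89 on the other. All flanking genes were taken by position. The signs of APOE and APOC2 in CM over IM turn with the hepatocyte-marker scaling, and that of APOC2 also with equal recovered reads and equal column sums. In CMT over CM the signs of APOE and APOC2 also turn with the hepatocyte-marker scaling, and that of APOC4 does not.

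**Figure D4:**
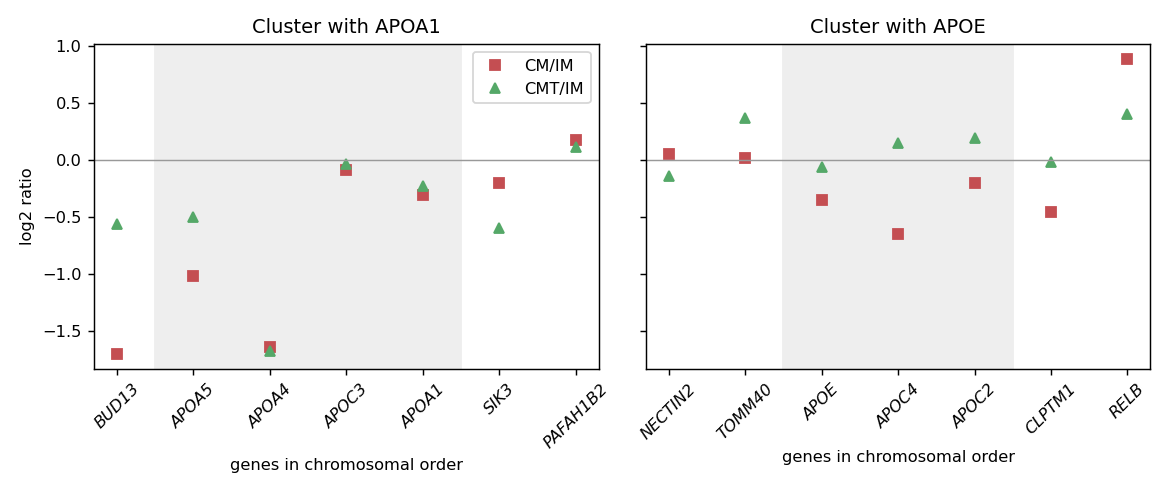
log2 ratio of CM over IM (squares) and CMT over IM (triangles) for the genes of the APOA1 and APOE clusters (grey band) and their flanking genes, in RefSeq order and not to scale, 1 ratio per pooled library pair with no error bar. APOA4 and APOA5 lie well below APOC3 and APOA1 in both ratios.

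A wider list of 80 lipoprotein genes, members included, set these values in their pathway. Of the 70 non-members, 61 were found and 60 met the FPKM minimum. In CM against IM, 12 of the 60 were lower by 1.5-fold or more and 2 were higher by that much, which is 20.0% and 3.33% where the shares of all features were 12.1% and 11.1%. In CMT against CM, 12 were higher and 5 lower, which is 20.0% and 8.33% where 12.1% and 13.5% of all features were. In CMT against IM, 2 were higher and 11 lower, which is 3.33% and 18.3% where 6.67% and 10.1% of all features were. The counts moved with the scaling. With equal recovered reads, 9 of the 60 were lower and 7 higher in CM against IM, and with the hepatocyte-marker scaling 7 were lower and 14 higher.

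**Figure D5:**
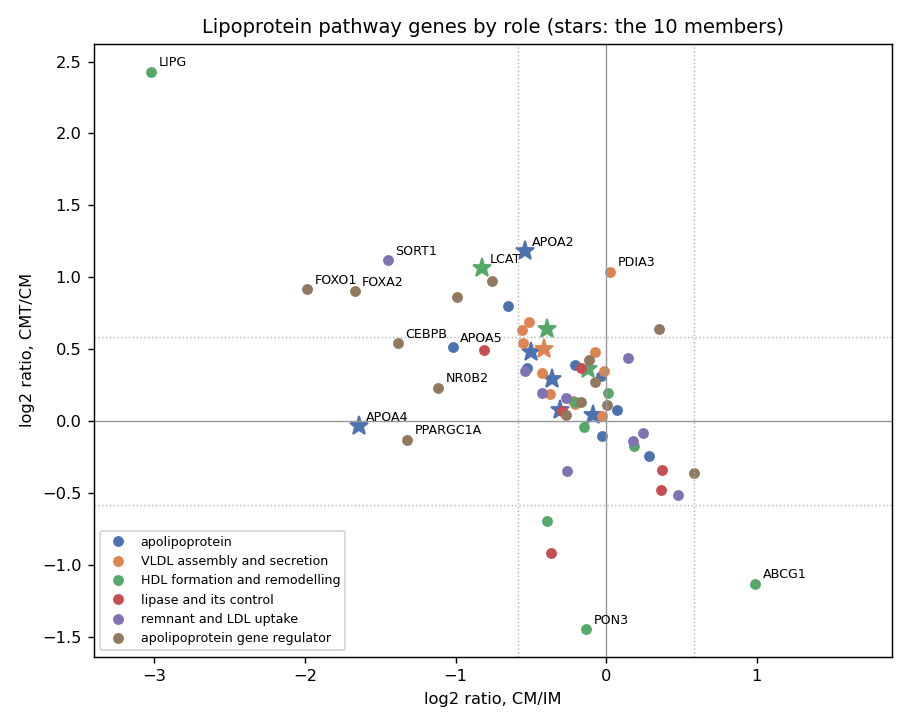
log2 ratio of CM over IM (horizontal) against CMT over CM (vertical) for 66 of the 70 lipoprotein genes that met the FPKM minimum, coloured by role, with stars for the 10 members and dotted lines at 1.5-fold. Both axes use the CM library, so a downward slope is partly built in. Of the genes drawn, LIPG lies farthest from the centre.

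Among all 14 apolipoprotein genes that were measured, 3 were lower in CM than in IM by 1.5-fold or more, where 12.1% of all features were. They were APOA4, APOA5 and APOC4. None of the 14 was higher by that much, where 11.1% of all features were. A ratio below 1 was found for 12 of the 14, where 52.0% of all and 69.1% of the abundant features had one. The 12 became 6 with the hepatocyte-marker scaling. APOA5, which promotes triglyceride clearance, was at 5430 FPKM in IM, 2679 in CM and 3827 in CMT. It was 2.03-fold lower in CM than in IM (interval 1.99 to 2.06). APOC4 was 1.74-fold higher in CMT than in CM (interval 1.71 to 1.77). Both APOC4 ratios against CM were under 1.5-fold with equal recovered reads, equal column sums and the hepatocyte-marker scaling, and the APOA5 ratio with the last of these. CLU, the clusterin gene, had the highest log2 ratio of the group in CM over IM, 0.28, and the lowest in CMT over CM, -0.24. APOC1, APOF and APOR were not analysed here.

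Of 12 genes for VLDL assembly and secretion, none reached 1.5-fold in CM against IM. Of all features, 12.1% were lower and 11.1% higher by that much. A ratio below 1 was found for 11 of the 12, where 52.0% of all and 69.1% of the abundant features had one. The 11 became 6 with equal recovered reads and 3 with the hepatocyte-marker scaling. SEC23A, a coat protein of vesicles that leave the endoplasmic reticulum, was 1.61-fold higher in CMT than in CM (interval 1.46 to 1.77). CIDEB, a lipid droplet protein involved in loading VLDL, was 1.55-fold higher (interval 1.48 to 1.62). Both were under 1.5-fold in 4 of the 5 scalings, all but the median ratio, so the 3 genes of the group past 1.5-fold there became 1, PDIA3, in 3 of these and 0 with the hepatocyte markers. Of all features, 12.1% were at least 1.5-fold higher in CMT than in CM. PDIA3, a protein disulfide isomerase of the endoplasmic reticulum, was at 3537 FPKM in IM, 3604 in CM and 7401 in CMT. It was the single gene of this group past 1.5-fold in CMT against IM, 2.09-fold higher (interval 1.99 to 2.20). CIDEB had the lowest ratio of the group in CM over IM, a log2 ratio of -0.56, SEC24A had the lowest in CMT over IM, -0.18, and VMP1 had the lowest in CMT over CM, 0.04.

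Of 11 genes for HDL formation and remodelling, LCAT and LIPG were lower in CM than in IM by 1.5-fold or more and ABCG1 was higher by that much. Of all features, 12.1% were lower and 11.1% higher by that much. LIPG, the endothelial lipase, which hydrolyses HDL phospholipid, was at 894 FPKM in IM, 110 in CM and 594 in CMT. It was 8.11-fold lower in CM than in IM (interval 7.49 to 8.78), while IM and CMT differed by 1.51-fold, a ratio that was under 1.5-fold in 3 of the 5 scalings. ABCG1, an exporter of cholesterol to HDL, was at 88.2, 175 and 79.9 FPKM in IM, CM and CMT. It was 1.99-fold higher in CM than in IM (interval 1.87 to 2.11). The HDL-bound paraoxonases were low in CMT. PON1 was at 7098, 5408 and 3339 FPKM, and PON3 was at 939, 857 and 315 FPKM. PON1 was 2.13-fold and PON3 2.98-fold lower in CMT than in IM.

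Of 7 measured genes for lipases and their control, ANGPTL4, an inhibitor of lipoprotein lipase, was 1.75-fold lower in CM than in IM, at 752 against 1318 FPKM. That ratio was under 1.5-fold with equal recovered reads, equal column sums and the hepatocyte-marker scaling. LIPA, the lysosomal acid lipase, had the highest log2 ratio of this group in CM over IM, 0.37. ANGPTL4 had the highest in CMT over CM, 0.49. PCSK5, a proprotein convertase, was under 5 FPKM in all libraries. Its ratio of 0.410 for CMT over IM rested on 6 reads in CMT against 18 in IM, and the interval of 0.133 to 1.08 included 1. LPL and ANGPTL8 were not analysed here.

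Of 11 genes for remnant and LDL uptake, 6 had a ratio below 1 in CM against IM, where 52.0% of all features had one. The 6 became 4 with equal recovered reads and 2 with the hepatocyte-marker scaling. SORT1, a sorting receptor that binds APOB, was at 50.9, 18.7 and 40.5 FPKM. It was 2.72-fold lower in CM than in IM and 2.17-fold higher in CMT than in CM (interval 1.77 to 2.67). HSPG2, a heparan sulfate proteoglycan, was 1.52-fold lower in CMT than in IM and under 1.5-fold with equal recovered reads, and SDC1, another, had the highest ratio of the group there, a log2 ratio of 0.58. STAB1 of this group is also one of the endothelial markers.

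Of 15 measured regulators of apolipoprotein genes, 7 were lower in CM than in IM by 1.5-fold or more, where 12.1% of all features were, and none was higher by that much, where 11.1% were, and with the hepatocyte-marker scaling 5 were lower and 3 higher. In CMT against CM, 5 were higher and none was lower by that much, where 12.1% and 13.5% of all features were. These counts became 4 and 2 with equal recovered reads and 0 and 3 with the hepatocyte-marker scaling. In CMT against IM 1 was higher and 5 were lower, where 6.67% and 10.1% of all features were. FOXO1, a forkhead factor that raises MTTP and APOC3 transcription, was at 265 FPKM in IM, 67.1 in CM and 127 in CMT. FOXA2 was at 174, 54.6 and 102 FPKM, and CEBPB was at 496, 190 and 277 FPKM. These 3 had CM lowest and CMT between CM and IM. NR1H4, the bile acid receptor, was at 760, 382 and 694 FPKM, and NR0B2, a target of that receptor, was at 323, 149 and 175 FPKM. PPARGC1A, a coactivator of nuclear receptors, was at 152, 60.8 and 55.6 FPKM, so its CMT level stayed near CM. CREB3L3, a factor that raises APOA4 and APOA5 transcription, was at 2838, 1682 and 3300 FPKM, 1.96-fold higher in CMT than in CM (interval 1.89 to 2.03). In CM against IM the CREB3L3 ratio was under 1.5-fold with equal recovered reads, equal column sums and the hepatocyte-marker scaling, and the NR1H4 ratio with the last of these. SREBF1, a regulator of lipid synthesis, was 1.99-fold higher in CMT than in IM (interval 1.88 to 2.11). CEBPA had the highest log2 ratio of the group in CM over IM, 0.58. The study itself named NR1H4 from these libraries.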

How the data were processed

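Liver RNA of each group (3 pigs per the labels) was pooled by the authors into 1 library for each of IM, CM and CMT, prepared with a TruSeq kit and sequenced as paired reads on an Illumina instrument. The submitters' processing notes name FastQC and TopHat, and the authors mapped reads to Sscrofa10.2. The counting program and the annotation are not given in the sources used here. The deposited values are FPKM per feature, made by the authors, and no raw counts were used.

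Reads were recovered from the steps of the FPKM values for lengths up to 10000 bases (tolerance 0.001 read). A recovered number may lack a common factor, which widens the intervals, and both mates of a pair may have been counted, which narrows them. Reads were not recovered for APOB, SEC24A, LRP1, HSPG2 or LOC100519252, which have no interval. Ratios of FPKM were formed without a pseudocount, with exact Clopper-Pearson intervals at 95% (scipy 1.17.1, Python 3.11.15, checked on simulated data). A gene was called at 1.5-fold where each of the 3 libraries had 1 FPKM or more. Both are criteria the study used. No test was run, because each group had 1 library.

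The members and gene lists were chosen with earlier results of these data known. All members were named, as were pathway genes past 1.5-fold and the highest and lowest ratios of each role group. 4 pathway genes enter the counts but are not reported here by name. Names were matched by symbol, RefSeq synonym or gene ID. Alternatives were other minimums, thresholds, a pseudocount of 1 and 5 scalings.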

Additional observations from a re-analysis of the deposited data

How the results depend on the processing

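No paired analysis was possible because each group had 1 library, and for the same reason no library could be left out. A pseudocount of 1, an FPKM minimum of 10 or none, and an interval that leaves out 1 or lies past 1.5-fold changed no count of members called by more than 1.5 times, and scaling by the median ratio moved no count, and no median by more than the counting error. The 2 members called lower in CM against IM became 1 at a 2-fold threshold and with equal recovered reads, equal column sums or the hepatocyte markers, APOA4 in each case. The 3 members higher in CMT than in CM became 2, APOA2 and LCAT, at a 2-fold threshold. The same 2 remained with the upper quartile, equal recovered reads or equal column sums, and 1, APOA2, with the hepatocyte markers. The single member higher in CMT than in IM became 0 at 2-fold and with the upper quartile. The members' median log2 ratio for CM over IM, -0.40, was -0.34 with the upper quartile, -0.12 with equal recovered reads, -0.15 with equal column sums and 0.083 with the hepatocyte markers. For CMT over CM, 0.42 became 0.29, 0.18, 0.17 and -0.077 in the same order, and 0.33 without LCAT and LIPC. For CMT over IM, 0.03 became -0.027 with the upper quartile, 0.076 with equal recovered reads and -0.029 without LCAT and LIPC. No scaling shift exceeded 0.50 on the log2 scale, under the 0.58 of a 1.5-fold ratio, so no called ratio could change sign. The hepatocyte-marker scaling turned the sign of 6 of the 10 CM over IM ratios, those of APOA1, APOC3, APOE, MTTP, LIPC and SCARB1. The scalings shift CM over IM by 0.02 to 0.49 on the log2 scale for every feature alike, so the members' distance from the median of all features, -0.38, does not depend on them. The median of the 1509 abundant features had a distance of -0.12 on the same side, so the members lay less far from abundant features. The background of 1509 abundant features and the halving of reads were added after the data were seen. With reads halved, the intervals that left out 1 stayed 9 of 9, 8 of 9 and 9 of 9 in the 3 comparisons.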

Other observations

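LOC100519252, the further feature that the study's gene list matches to human APOB, was at 1605 FPKM in IM, 1060 in CM and 1104 in CMT. It was chosen here after its values were seen. Its log2 ratio was -0.60 in CM over IM, near the -0.50 of the feature named APOB. In CMT over CM it was 0.06, where APOB had 0.48. How reads are shared between the 2 features was not tested.

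Genes with 3-library patterns near those of the 2 members with the widest range were ranked by the larger of 2 differences in log2 ratio, for CM over IM and CMT over IM, among the 12127 mRNA features with 10 FPKM or more in each library. Few features lay near APOA4. LOC100154755, at 35.3, 11.04 and 10.9 FPKM, was the 1 feature within 0.1. The others of the nearest 5 were LOC100739592 (0.24 away), the coactivator gene listed as PPARGC-1 (0.32), LOC100624541 (0.32) and METTL12 (0.36). For APOA2, 10 features lay within 0.1. The nearest 5 were LOC100155494, METTL24, LOC100737408, MVK and CLDN12, between 0.03 and 0.06 away. MVK, the mevalonate kinase of cholesterol synthesis, was at 459 FPKM in IM, 302 in CM and 738 in CMT. Patterns over 3 libraries carry little information and nothing about shared function or control follows from them. Among the members, APOB and MTTP were the nearest pair, 0.10 apart, and the nearest member to APOA4 was APOA1, 1.45 away.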
